A study of Mus musculus with 6 samples.

Results

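Genes that fill, empty or regulate the intracellular calcium stores, together with pumps that clear calcium from the cytosol, were followed in mouse cerebellum. The 10 genes, picked by symbol from the 53746 genes of the count table, were the IP3 receptors *Itpr1* and *Itpr2*, the ryanodine receptors *Ryr1*, *Ryr2* and *Ryr3*, the SERCA pumps *Atp2a2* and *Atp2a3*, the plasma membrane pump *Atp2b2*, the calsequestrin *Casq2* and the adaptor *Stac*. RNA was sequenced from the whole cerebellum of 3 N153SLSL/LSLPcp2-cre mice (Pcp2-cre below) and from that of 3 N153SLSL/LSL mice (control), all 2 months old and perfused with buffered saline. Every mouse carried both copies of a *Sting1* N153S knockin that a LoxP-Stop-LoxP cassette keeps silent, and the *Pcp2-cre* transgene, which drives Cre in Purkinje cells, was present in the first group only. In both groups mouse 3 was female and the others were male, according to the labels. No mice with Cre alone were analysed here, so an effect of Cre and one of the released knockin cannot be told apart.

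A neuron keeps a calcium store in its endoplasmic reticulum. SERCA pumps load the store, calsequestrins bind calcium inside it, and IP3 and ryanodine receptors let it out, the former in answer to IP3 made by phospholipase C and the latter in answer to calcium itself. Pumps of the PMCA family then push calcium out across the plasma membrane. In the cerebellum this machinery is best known from Purkinje cells, whose dendrites hold very large amounts of the type 1 IP3 receptor downstream of glutamate receptors that act through phospholipase C, and mice without the type 1 IP3 receptor are ataxic.

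The promoters of 3 of the genes are shown because 2 of these genes (*Casq2* and *Stac*) had the largest differences between genotypes and the other (*Ryr2*) one of the smallest. Each window runs from 250 bases before to 50 bases after the start of the gene in RefSeq, on build GRCm38.p6, and 7 of the 10 genes had an entry there. *Casq2* is at chr3:102086165-102086464 on the forward strand, *Stac* at chr9:111690299-111690598 and *Ryr2* at chr13:12106896-12107195, both on the reverse strand. The sequences read 5′ to 3′ along the gene, and capitals mark the MEF2 motif in *Casq2* and the letters AGGTCA in *Ryr2*.
Casq2: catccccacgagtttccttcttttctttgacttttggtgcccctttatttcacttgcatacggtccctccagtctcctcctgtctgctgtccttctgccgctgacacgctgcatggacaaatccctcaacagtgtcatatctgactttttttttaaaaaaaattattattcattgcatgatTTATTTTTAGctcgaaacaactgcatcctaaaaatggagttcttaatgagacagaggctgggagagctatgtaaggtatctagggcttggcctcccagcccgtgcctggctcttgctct
Stac: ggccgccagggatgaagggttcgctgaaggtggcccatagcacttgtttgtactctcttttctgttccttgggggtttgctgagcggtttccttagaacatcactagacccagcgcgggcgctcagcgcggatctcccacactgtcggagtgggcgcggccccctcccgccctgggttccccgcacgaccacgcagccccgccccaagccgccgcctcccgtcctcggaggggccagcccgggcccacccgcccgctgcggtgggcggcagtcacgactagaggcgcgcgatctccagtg
Ryr2: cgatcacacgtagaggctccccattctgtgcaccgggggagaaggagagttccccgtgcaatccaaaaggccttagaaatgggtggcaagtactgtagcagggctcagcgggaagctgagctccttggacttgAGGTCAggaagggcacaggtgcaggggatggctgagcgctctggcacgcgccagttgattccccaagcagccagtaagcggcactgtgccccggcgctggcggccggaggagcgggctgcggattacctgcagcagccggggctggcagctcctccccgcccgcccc
The *Casq2* window was poor in G and C (44.7%, with 6 CpG dinucleotides), while those of *Stac* (68.7%, 29 CpG) and *Ryr2* (65.3%, 18 CpG) were rich, against a median of 52.7% and 7 CpG over all 32851 promoters of the table. Both strands were searched for AGGTCA, for TGACGTCA, for TATAAA and for the MEF2 motif, which is recognized by the muscle and neuronal MEF2 factors and was added after the sequences had been seen. The MEF2 motif began 69 bases before the *Casq2* start, where it reads as a match on both strands, and 3.19% of all promoters held one. AGGTCA began 117 bases before the *Ryr2* start and was held by 16.3% of all promoters, TGACGTCA by 1.79% and TATAAA by 13.6%. None of the 4 was found in the *Stac* window or in those of *Itpr2*, *Ryr1*, *Atp2a3* and *Atp2b2*. *Itpr1*, *Ryr3* and *Atp2a2* had no entry.

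Levels are compared between genotypes as CPM, counts scaled to the library size with TMM. Values of single mice are listed in the order of mice 1, 2 and 3. Libraries held 6733178 to 10178218 counts, so that a floor of 3 counts came to 0.297 to 0.447 CPM, for counting error only. *Sting1*, the engineered gene, had 23.2, 27.2 and 26.2 CPM in the control mice against 44.4, 34.2 and 35.5 CPM in the Pcp2-cre mice. Which cells carried this difference was not tested, and microglial markers, given below, were also higher. The 9 Purkinje cell markers examined were all lower in Pcp2-cre mice at an adjusted p of at most 0.05, and their summed level was 2900 to 3160 CPM in control and 1800 to 2060 CPM in Pcp2-cre mice. Choroid plexus markers summed to 807 and 1240 CPM in control mice 1 and 2 but to 32.7 CPM in control mouse 3 and 24.4 to 86.6 CPM in Pcp2-cre mice. Fold changes and p-values were taken from the quasi-likelihood test of edgeR, and p-values were adjusted by Benjamini-Hochberg over 16961 genes. A gene was called where its adjusted p did not exceed 0.05 and its log2 fold change reached 0.5 in either direction.

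All 10 genes had enough counts to be tested. Of these, 5 (*Itpr1*, *Ryr1*, *Atp2a3*, *Casq2* and *Stac*) were called lower in Pcp2-cre cerebella, where 1.79% of all genes tested were called lower. *Ryr3* was called higher, as were 1.37% of all genes. With the adjusted p alone, 7 were lower and 1 higher, against 4.75% and 2.99% of all genes, since *Atp2a2* and *Atp2b2* then joined the lower ones. In these 7 genes no Pcp2-cre mouse reached the lowest control mouse (11.4% of all genes), and in *Ryr3* all 3 were above the highest (10.8%). The median log2 fold change of the 10 genes was -0.62, compared with 0.00 over all genes tested. The study named genes of this group from the same mice, so these counts are not independent evidence of a direction.

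**Figure D1:**
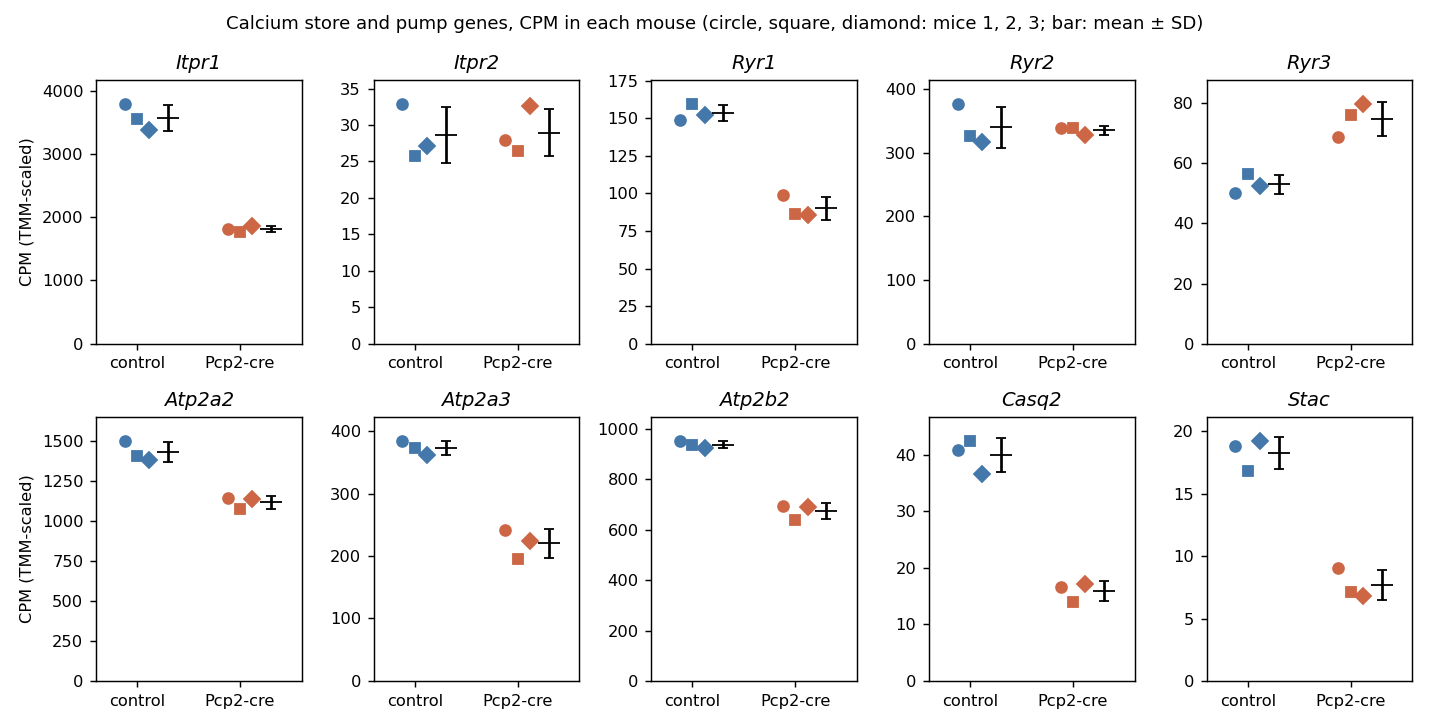
CPM (vertical axes, each starting at 0) of the 10 genes in each mouse, with control mice in blue and Pcp2-cre mice in orange. Circles, squares and diamonds are mice 1, 2 and 3, and bars are the mean and SD of 3 mice. The genotypes separate downward in *Itpr1*, *Ryr1*, *Atp2a2*, *Atp2a3*, *Atp2b2*, *Casq2* and *Stac*, separate upward in *Ryr3* and overlap in *Itpr2* and *Ryr2*.

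*Itpr1* (ENSMUSG00000030102) encodes the type 1 IP3 receptor and occupies bases 108190048 to 108528070 of chromosome 6 in GRCm39, on the forward strand. It had 3802, 3554 and 3390 CPM in the control mice against 1823, 1765 and 1858 CPM in the Pcp2-cre mice. The groups lay far apart and varied little within themselves. *Itpr1* fell by 49.3%, a log2 fold change of -0.98 (95% interval -1.06 to -0.90, adjusted p = 2.93e-13 in edgeR). Its share of all counts was 0.336% to 0.374% in control and 0.178% to 0.187% in Pcp2-cre mice. In a whole tissue, fewer cells of a type and less RNA per cell cannot be told apart, here and for every gene that follows.

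*Itpr2* (ENSMUSG00000030287, chromosome 6, 146009797 to 146403721, reverse strand) encodes the type 2 receptor, known from glia. It had 32.9, 25.8 and 27.2 CPM in the control mice against 27.9, 26.4 and 32.6 CPM in the Pcp2-cre mice. These values overlapped, and the log2 fold change was 0.01 (95% interval -0.20 to 0.21, adjusted p = 0.982 from edgeR). *Itpr3*, the remaining member of the family, averaged 41.5 ± 3.43 CPM in control mice against 42.3 ± 3.29 CPM in Pcp2-cre mice (SD, n = 3), a log2 fold change of 0.03 (95% interval -0.14 to 0.19, adjusted p = 0.917 from edgeR). Per length, the family was almost entirely *Itpr1*. The FPKM of the 3 genes summed to 389 ± 23.9 in control and 188 ± 6.29 in Pcp2-cre mice (SD, n = 3), and *Itpr1* made up 98.5% and 96.9% of those sums.

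The ryanodine receptors did not share a direction. *Ryr1* (ENSMUSG00000030592, chromosome 7, 28702769 to 28824604, reverse strand), the skeletal muscle type, which Purkinje cells also express, had 149.1, 159.8 and 152.4 CPM in the control mice against 99.0, 86.3 and 85.4 CPM in the Pcp2-cre mice. The lowest control mouse was well above the highest Pcp2-cre mouse, and *Ryr1* fell by 41.2%, a log2 fold change of -0.77 (95% interval -0.87 to -0.66, adjusted p = 9.76e-10 from edgeR). *Ryr2* (ENSMUSG00000021313, chromosome 13, 11567988 to 12121870, reverse strand), the type of the heart and of many neurons, had 377.2, 326.7 and 317.3 CPM in the control mice against 339.3, 338.4 and 327.6 CPM in the Pcp2-cre mice. All Pcp2-cre values fell inside the control range, and the log2 fold change was -0.02 (95% interval -0.13 to 0.09, adjusted p = 0.889 from edgeR).

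*Ryr3* (ENSMUSG00000057378, chromosome 2, 112461699 to 113047441, reverse strand) encodes the type found at lower levels in brain and other tissues. It had 50.2, 56.6 and 52.4 CPM in the control mice against 68.8, 76.1 and 79.9 CPM in the Pcp2-cre mice. Every Pcp2-cre mouse was above every control mouse. *Ryr3* rose by 41.5%, a log2 fold change of 0.50 (95% interval 0.37 to 0.63, adjusted p = 1.18e-05 from edgeR), which is right at the fold threshold. Of 18 other ways of fitting the data, 10 did not call it, with log2 fold changes between 0.42 and 0.56 over all 18.

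Glial markers also differed in these mice, mostly upward. Microglial markers summed to 105 to 106 CPM in control and 270 to 295 CPM in Pcp2-cre mice, with 7 of 8 called higher. The 8 astrocyte and Bergmann glia markers summed to 2750 to 2810 and 3130 to 3210 CPM, with 2 called higher, *Gfap* and *Aqp4*. By the adjusted p alone 3 of these 8 were higher and 2 lower, *Slc1a3* (-0.22) and *Gdf10* (-0.25). Every Pcp2-cre mouse was above every control mouse in 5 of the 8 and below in 2 (10.8% and 11.4% of all genes). The 8 oligodendrocyte markers summed to 3650 to 3880 and 4280 to 4490 CPM, with 1 called higher. The part of these cells in the *Ryr3* result was not tested.

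Within a mouse, each ryanodine receptor could be read against the others. The log2 ratio of *Ryr3* to *Ryr1* was -1.57, -1.49 and -1.54 in the control mice against -0.53, -0.18 and -0.10 in the Pcp2-cre mice, a difference of 1.26. That of *Ryr2* to *Ryr1* was 1.34, 1.03 and 1.06 and then 1.77, 1.97 and 1.94, a difference of 0.75. All 3 Pcp2-cre mice exceeded all control mice in both ratios, with p = 0.10 in an exact two-sided permutation test, the smallest p that 3 mice against 3 allow. Per length, the FPKM of the 3 receptors summed to 33.7 ± 1.40 in control and 31.3 ± 1.13 in Pcp2-cre mice (SD, n = 3), a small difference beside the change in makeup. This sum also did not overlap between genotypes, with 32.3 in the lowest control and 32.0 in the highest Pcp2-cre mouse. *Ryr1* went from 24.8% ± 1.78 to 16.0% ± 0.776 of that sum and *Ryr3* from 9.53% ± 1.07 to 14.9% ± 1.42 (SD, n = 3), neither overlapping between genotypes. *Ryr2* remained the main transcript, with 65.7% ± 2.70 and 69.1% ± 1.58 (SD, n = 3), which overlapped.

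The SERCA pumps return calcium to the endoplasmic reticulum. *Atp2a2* (ENSMUSG00000029467, chromosome 5, 122591575 to 122640903, reverse strand), the form used in most cells, had 1501, 1410 and 1381 CPM in the control mice against 1143, 1073 and 1137 CPM in the Pcp2-cre mice. The groups did not overlap, but the decrease of 21.9%, a log2 fold change of -0.36 (95% interval -0.43 to -0.28, adjusted p = 7.58e-07 from edgeR), was under the fold threshold. *Atp2a3* (ENSMUSG00000020788, chromosome 11, 72851990 to 72883870, forward strand), whose product is abundant in Purkinje cells within the brain, had 384.2, 372.5 and 362.5 CPM in the control mice against 241.3, 195.2 and 224.3 CPM in the Pcp2-cre mice. It fell by 41.0%, a log2 fold change of -0.76 (95% interval -0.88 to -0.64, adjusted p = 4.27e-09 from edgeR).

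The decrease of *Atp2a3* was the larger in size, and the log2 ratio of *Atp2a2* to *Atp2a3* moved from 1.97, 1.92 and 1.93 in the control mice to 2.24, 2.46 and 2.34 in the Pcp2-cre mice. This difference of 0.41 had p = 0.10 in the exact two-sided permutation test. Together with *Atp2a1*, the fast muscle form, which was barely detected (1.20 ± 0.165 and 1.64 ± 0.323 CPM, SD, n = 3), the family had a summed FPKM of 332 ± 13.2 in control and 239 ± 12.4 in Pcp2-cre mice (SD, n = 3). *Atp2a3* gave 23.3% ± 0.582 of it in control and 19.2% ± 1.20 in Pcp2-cre mice (SD, n = 3).

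*Atp2b2* (ENSMUSG00000030302, chromosome 6, 113720766 to 114021022, reverse strand) encodes PMCA2, the plasma membrane pump for which Purkinje cells and cochlear hair cells are known. It had 951.6, 936.7 and 922.5 CPM in the control mice against 694.2, 636.7 and 690.9 CPM in the Pcp2-cre mice. The groups were far apart relative to their spread. The decrease of 28.1%, a log2 fold change of -0.48 (95% interval -0.56 to -0.40, adjusted p = 1.50e-08 from edgeR), stopped short of the fold threshold, which it passed in the FPKM values (-0.51) and in males alone (-0.51).

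The other PMCA genes were not called. *Atp2b1*, the widely used form, averaged 324.2 ± 13.7 CPM in control mice against 322.3 ± 2.68 CPM in Pcp2-cre mice (SD, n = 3), a log2 fold change of -0.01 (95% interval -0.09 to 0.08, adjusted p = 0.950 from edgeR). *Atp2b3*, a form of neurons, had a log2 fold change of -0.11 (95% interval -0.22 to -0.01, adjusted p = 0.230) and *Atp2b4* one of -0.11 (-0.26 to 0.04, adjusted p = 0.466), and both overlapped between genotypes. The log2 ratio of *Atp2b1* to *Atp2b2* was -1.49, -1.59 and -1.52 in the control mice against -1.12, -0.98 and -1.09 in the Pcp2-cre mice, a difference of 0.47 (p = 0.10, exact two-sided permutation test). *Atp2b2* went from 44.3% ± 1.14 to 37.0% ± 0.847 of the summed PMCA FPKM (SD, n = 3), while that sum went from 231 ± 8.94 to 192 ± 4.37.

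*Casq2* (ENSMUSG00000027861, chromosome 3, 101993234 to 102056307, forward strand) encodes the cardiac calsequestrin, which binds calcium inside the store. It had 40.9, 42.4 and 36.7 CPM in the control mice against 16.6, 14.0 and 17.2 CPM in the Pcp2-cre mice. Even the lowest control mouse was far above the highest Pcp2-cre mouse. *Casq2* fell by 60.2%, a log2 fold change of -1.33 (95% interval -1.53 to -1.14, adjusted p = 2.34e-09 from edgeR), the largest of the 10. *Casq1*, the skeletal muscle form, averaged 2.05 ± 0.234 CPM in control mice against 2.49 ± 0.58 CPM in Pcp2-cre mice (SD, n = 3), a log2 fold change of 0.31 (95% interval -0.25 to 0.88, adjusted p = 0.624 from edgeR). The log2 ratio of *Casq1* to *Casq2* was higher by 1.56 in Pcp2-cre mice (p = 0.10, exact two-sided permutation test), although *Casq2* still made up 85.6% of the FPKM of both.

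*Stac* (ENSMUSG00000032502, chromosome 9, 111390497 to 111519429, reverse strand) encodes an adaptor of L-type calcium channels, which link the membrane to the store in muscle. It was low, with 18.8, 16.8 and 19.2 CPM in the control mice against 9.09, 7.16 and 6.81 CPM in the Pcp2-cre mice. The groups did not overlap, and *Stac* fell by 58.1%, a log2 fold change of -1.26 (95% interval -1.52 to -0.99, adjusted p = 4.96e-07 from edgeR). *Stac2* had a log2 fold change of 0.19 (95% interval 0.02 to 0.36, adjusted p = 0.205) and *Stac3* one of 0.18 (-0.08 to 0.44, adjusted p = 0.502), with overlapping groups in both. Per length, *Stac* was 28.5% ± 0.0406 of the family in control and 12.4% ± 1.11 in Pcp2-cre mice (SD, n = 3), while the summed FPKM of the 3 genes, 20.1 ± 0.673 and 19.0 ± 1.81, overlapped.

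**Figure D2:**
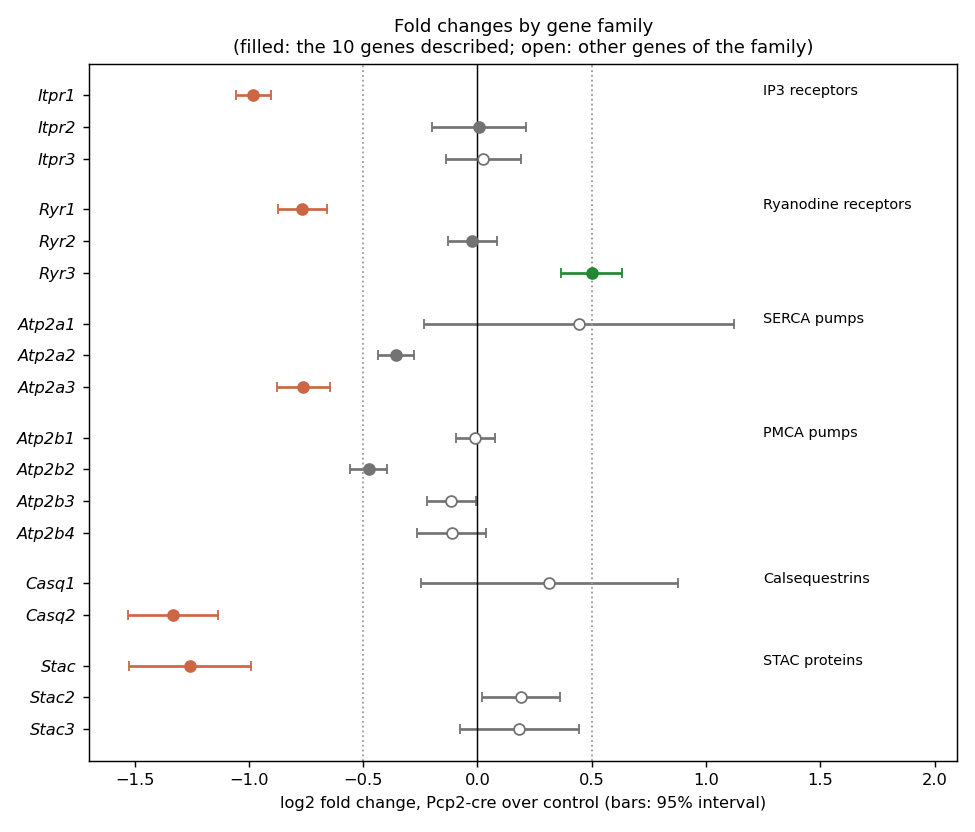
Log2 fold change of Pcp2-cre over control mice (horizontal axis) with its 95% interval from edgeR, for the 10 genes (filled) and the 8 other genes of their families (open). Orange genes were called lower, the green gene higher and grey genes not called, and dotted lines mark the threshold of 0.5 on either side. In each family at least 1 gene lies left of 0 with its whole interval while another spans or exceeds 0.

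Across the families, none of the 8 further genes (*Itpr3*, *Atp2a1*, *Atp2b1*, *Atp2b3*, *Atp2b4*, *Casq1*, *Stac2* and *Stac3*) was called in either direction, and their median log2 fold change was 0.11. The log2 ratio of *Itpr2* to *Itpr1* completed the 6 ratios computed, at -6.84, -7.09 and -6.95 in the control mice against -6.02, -6.05 and -5.82 in the Pcp2-cre mice, a difference of 0.999. No ratio overlapped between genotypes. In each ratio the second gene was itself lower by the adjusted p in these mice, so the ratios are not independent of the results of single genes. With Benjamini-Hochberg adjustment over the 6, each p of the exact permutation test stayed at 0.10, which is the limit of this design.

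**Figure D3:**
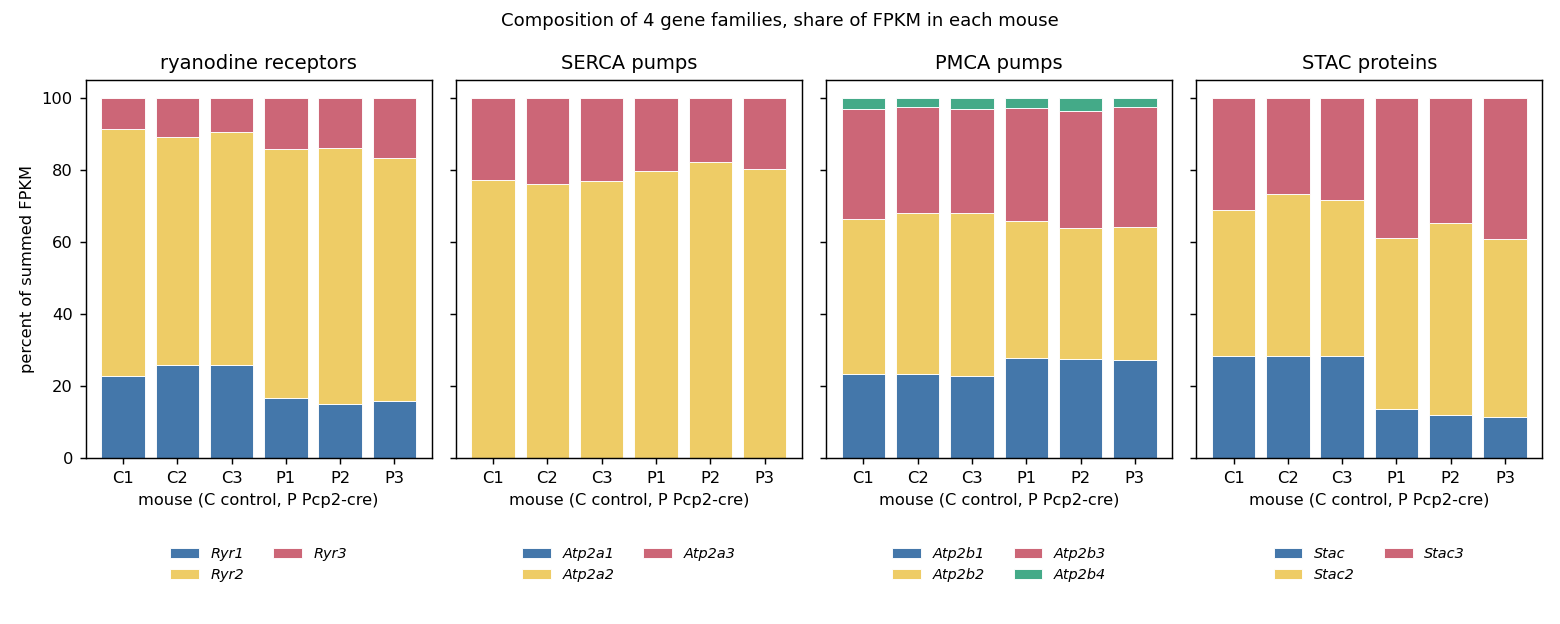
Share of each gene in the summed FPKM of its family (vertical axis, percent) in control mice (C1 to C3) and Pcp2-cre mice (P1 to P3), for ryanodine receptors, SERCA pumps, PMCA pumps and STAC proteins. Each bar is a mouse and adds to 100%. The shares of *Ryr1*, *Atp2a3*, *Atp2b2* and *Stac* are smaller in every Pcp2-cre mouse than in any control mouse.

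The order of levels per length also changed. In control mice it ran, by median FPKM, from *Itpr1* (378) over *Atp2a2* (254), *Atp2b2* (102), *Atp2a3* (78.6), *Ryr2* (21.5), *Casq2* (12.7), *Ryr1* (8.35), *Stac* (5.62) and *Ryr3* (3.03) to *Itpr2* (2.00), and no neighbours overlapped. In Pcp2-cre mice *Atp2a2* (193) and *Itpr1* (183) overlapped at the top. *Ryr1* (4.88), *Casq2* (4.77) and *Ryr3* (4.51) ran into one another, as did *Stac* (2.28) and *Itpr2* (2.34). By mean FPKM *Itpr1* ranked 54 among all genes in control and 162 in Pcp2-cre mice.

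Because Purkinje cell markers were lower throughout, each gene was also read against them. The mean log2 CPM of 9 markers (*Calb1*, *Pcp2*, *Pcp4*, *Ppp1r17*, *Rgs8*, *Slc1a6*, *Gng13*, *Skor2* and *Arhgef33*) was 7.30, 7.38 and 7.32 in the control mice against 6.78, 6.61 and 6.65 in the Pcp2-cre mice, a difference of -0.65. Against this mean *Casq2* was lower by a further 0.66 (difference -0.66), *Stac* by 0.58 (-0.58) and *Itpr1* by 0.32 (-0.32). *Ryr1* and *Atp2a3* were nearly level with the markers, at -0.11 each. *Atp2b2* (0.18) and *Atp2a2* (0.30) fell less than the markers did, and *Ryr2* (0.64), *Itpr2* (0.68) and *Ryr3* (1.15) were higher relative to them. None of the 10 differences overlapped between genotypes, and each had p = 0.10 in the exact two-sided permutation test, 0.10 after Benjamini-Hochberg adjustment over the 10.

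*Ryr1* and *Atp2a3* lay closest to the markers. Against *Calb1* alone, the calbindin gene, *Ryr1* differed by -0.00771 and *Atp2a3* by -0.00294 (exact permutation p = 0.90 for both), and on the FPKM scale the sign of *Ryr1* turned, to 0.04 (p = 0.40, exact permutation test). With *Pcp2* left out of the markers, *Atp2a3* differed by -0.0781 (p = 0.50, exact permutation test). *Ryr1* then differed by -0.0828 and *Itpr1* by -0.293 (p = 0.10 for both, exact permutation test). *Casq2*, *Stac* and *Itpr1* stayed below the markers in all 9 alternatives, with differences of -0.74 to -0.55, -0.66 to -0.32 and -0.39 to -0.22. The markers are themselves transcripts that can change within a cell, so these differences do not count cells.

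**Figure D4:**
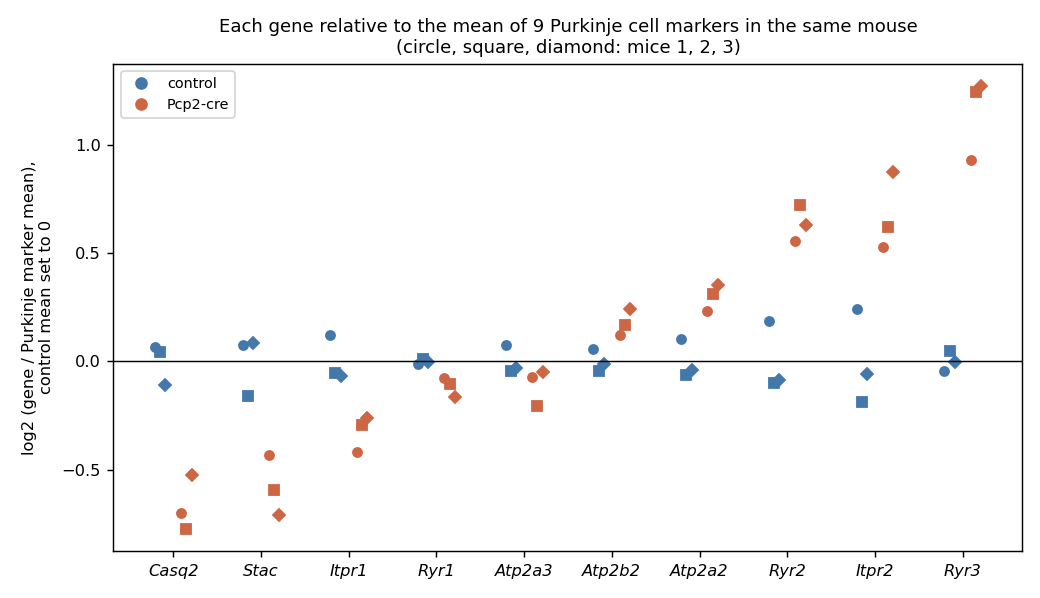
Log2 ratio of each gene to the mean of 9 Purkinje cell markers in the same mouse, with the control mean set to 0 (vertical axis). Control mice are blue, Pcp2-cre mice orange, and circles, squares and diamonds are mice 1, 2 and 3. *Casq2*, *Stac* and *Itpr1* lie below the controls in every Pcp2-cre mouse, *Ryr1* and *Atp2a3* lie close to 0, and the other 5 genes lie above.

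Around these genes, 109 others of calcium store signalling were listed by role, of which 96 were tested. Of these, 5 were called lower and 0 higher by edgeR, where 1.79% and 1.37% of all genes were. By the adjusted p alone 16 were lower and 2 higher, where 4.75% and 2.99% of all genes were, and the median log2 fold change was -0.03. Of the 5, 4 are described here, and none of these 4 overlapped between genotypes. *Car8*, whose product binds IP3R1 and lowers its affinity for IP3, was at 1221, 1282 and 1134 CPM in the control mice against 694.0, 555.3 and 625.4 CPM in the Pcp2-cre mice, a log2 fold change of -0.96 (95% interval -1.08 to -0.84, adjusted p = 2.65e-10).

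The other 3 belonged to the IP3 branch. *Plcb3*, a phospholipase C that makes IP3, went from 87.1 ± 4.68 to 53.2 ± 4.22 CPM (SD, n = 3), a log2 fold change of -0.71 (adjusted p = 4.02e-08 from edgeR). *Homer3*, a scaffold that binds the IP3 receptor, went from 330.0 ± 20.0 to 213.7 ± 18.9 CPM (SD, n = 3), a log2 fold change of -0.63 (adjusted p = 6.51e-08 from edgeR). *Itpka*, a kinase that turns IP3 into IP4, went from 55.0 ± 6.26 to 35.8 ± 3.88 CPM (SD, n = 3), a log2 fold change of -0.61 (adjusted p = 6.15e-05 from edgeR). *Itpka* was not called with the choroid plexus score as a covariate (-0.44), without the choroid-rich control mice 1 and 2 (-0.42, a fit with 1 control mouse) or in FPKM (adjusted p = 0.0513 and 0.0584 from limma), and *Homer3* was not called in FPKM with a pseudocount of 0.1.

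In the list of upstream IP3 signalling, 8 of 17 genes were lower by the adjusted p and 1 higher, and their median was -0.14 on the log2 scale. *Inpp5a* (-0.48, adjusted p = 7.24e-07), which dephosphorylates IP3, came just short of the fold threshold. *Plcb4*, the phospholipase C of most Purkinje cells, went from 389.5 ± 13.4 to 330.5 ± 9.39 CPM (SD, n = 3), a log2 fold change of -0.24 (adjusted p = 4.29e-04 from edgeR). *Itpkb*, a second IP3 kinase, rose by 0.37 on the log2 scale (adjusted p = 5.53e-05).

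**Figure D5:**
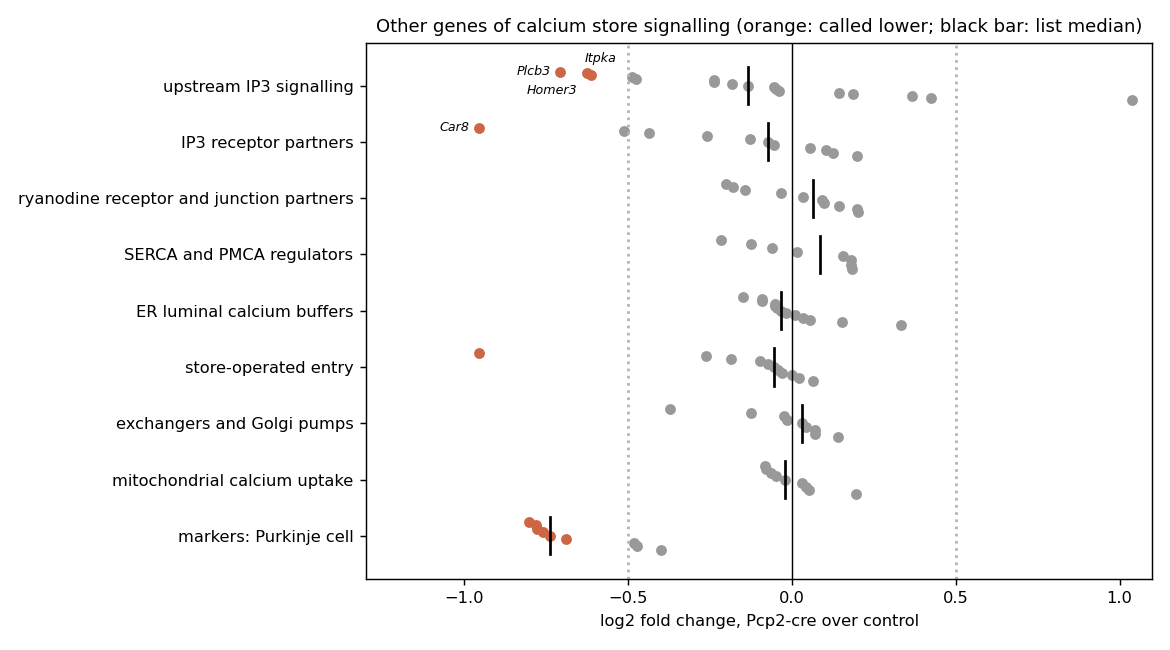
Log2 fold change of Pcp2-cre over control mice (horizontal axis) for the tested genes of 8 lists of calcium store signalling and of the 9 Purkinje cell markers. Each point is a gene, orange where called lower, black bars are list medians and dotted lines mark 0.5 on either side. The genes named among those called are *Plcb3*, *Homer3*, *Itpka* and *Car8*, while the medians of luminal buffers, exchangers and mitochondrial uptake lie near 0. Single genes of these 3 lists range from -0.149 to 0.332, -0.373 to 0.139 and -0.0829 to 0.195, and none was called.

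The remaining lists held few changes. Of the IP3 receptor partners, 1 of 11 tested genes passed the adjusted p, *Car8*, and the median log2 fold change was -0.07. Among ryanodine receptor and junction partners 3 of 10 were lower by the adjusted p and 0 called, and *Asph*, whose locus encodes junctin, was at -0.20 (adjusted p = 0.00145). Of the SERCA and PMCA regulators 1 of 8 was lower and 1 higher by the adjusted p. The lower one was *Nptn*, the PMCA partner neuroplastin, at 436.7 ± 15.6 and 375.9 ± 4.76 CPM (SD, n = 3) and a log2 fold change of -0.22 (adjusted p = 7.58e-04 from edgeR). Of the genes of store-operated entry, in which STIM proteins sense the empty store, 3 of 11 were lower by the adjusted p, *Stim1* (-0.26, adjusted p = 6.52e-04) and *Orai2* (-0.19, adjusted p = 0.0366) among them.

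None of the 13 luminal calcium buffers, 9 exchangers and Golgi pumps and 9 genes of mitochondrial calcium uptake that were tested passed the adjusted p in edgeR. Their median log2 fold changes were -0.03, 0.03 and -0.02. The genes with the largest mean CPM of each list, a scale that does not correct for length, were *Hsp90b1* (log2 fold change -0.02, 95% interval -0.12 to 0.09), *Slc24a2* (-0.02, -0.10 to 0.07) and *Vdac1* (-0.08, -0.17 to 0.00). *Casq2* was lower in mice in which no listed luminal buffer of the general endoplasmic reticulum was called. Whether these buffers changed within Purkinje cells cannot be seen in whole tissue and was not tested.

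Genes that are shared with muscle were examined beside these results, since *Ryr1*, *Casq2* and *Stac* are known from it. Of 10 striated muscle markers 2 had enough counts to be tested and neither was called, 5 had at most 3 counts in every mouse, 1 of them 0 in all 6, and the summed level was 14.6 to 18.1 CPM in control and 16.3 to 18.0 CPM in Pcp2-cre mice. The 8 granule cell markers, of the most numerous cerebellar neuron, summed to 5240 to 5360 CPM and 5400 to 5600 CPM with 0 called, and the 6 endothelial markers to 156 to 167 and 166 to 176 CPM with 0 called. Without control mice 1 and 2, in which choroid plexus markers were high, the same 5 genes were called lower and *Ryr3* higher, but 1 control mouse then remained, and the fit assumed that it varies like the Pcp2-cre mice.

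Exons of some of the genes overlap those of annotated genes on the opposite strand in Gencode M39, and whether the counting used strand is not given in the sources used here, so reads of the partners cannot be told apart. *Stac* shares 307 bases (10.7% of its exons) with *Gm43236*, which was counted 33, 28 and 45 times in control and 10, 12 and 11 times in Pcp2-cre libraries. *Atp2a2* shares 3206 bases (26.2%) with *Gm43361* (log2 fold change -0.49), *Ryr1* 898 bases (4.11%) with *Gm26604* (-0.81) and *Itpr1* 181 bases (0.988%) with *Gm44101* (-0.94). *Ryr3*, which rose, shares 917 bases (4.83%) with *Aven* (0.20, adjusted p = 0.371). Of the pathway genes called, *Homer3* shares 1153 bases (22.9%) with *Ddx49*, *Itpka* 647 bases (6.56%) with *Ltk* and *Plcb3* 303 bases (3.83%) with *Gm52400*. Of the Purkinje cell markers, *Pcp2* shares 941 bases (51.5%) with *Pet100* and *Gng13* 448 bases (43.8%) with *Chtf18*. Their log2 fold changes were -0.40 and -0.48, where the median of the 9 markers was -0.74. With less overlap, *Slc1a6* (8.45% with *Gm66870*) was at -0.47 and *Arhgef33* (7.82% with *Gm10190*) at -0.78. The part of the overlaps in these values was not tested.

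For 3 of the genes the transcripts with the nearest values over the 6 mice were sought among 11381 genes with a mean of at least 10 CPM, by the root mean square difference in log2 CPM after subtracting the control mean. This distance includes the difference between genotypes, so genes of a similar fold change come out near without varying together within a genotype. Those nearest to *Itpr1* were *Gm44101* (0.037), its antisense neighbour, *Eps8l2* (0.047), *Shisa6* (0.0671), *Cep72* (0.0701) and *Plpp6* (0.0804). Those nearest to *Casq2* were *Tnc* (0.0944), *Slc9a3* (0.109), *Cntnap5b* (0.119), *Iltifb* (0.126, a near copy of *Il22* whose counts are uncertain) and *B3gnt5* (0.150), and those nearest to *Ryr3* were *Fos* (0.0571), *Agt* (0.0593), *Hvcn1* (0.0615), *Cd44* (0.0637) and *Gfm2* (0.0659). The candidates for *Casq2* were more distant than those for *Itpr1* and *Ryr3*.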

How the data were processed

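Poly A-enriched RNA of whole cerebellum was sequenced as paired reads from 3 control and 3 Pcp2-cre mice. The authors aligned trimmed reads to GRCm39 with STAR, counted them with featureCounts and StringTie on Gencode, and deposited raw counts for 53746 genes. The authors also deposited FPKM, fragments scaled to exon length and library size, for 55005 genes. Tool versions, the Gencode release and the use of strand are not given in the sources used here, and replicates were not pooled. The p-values rest on the spread between individual mice. In edgeR the spread of each gene is moderated by that of all genes tested, while the exact permutation tests use the values of the mice alone.

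The test on the counts was the quasi-likelihood test of edgeR 4.0.16 in R 4.3.3, after filterByExpr, which kept 16961 genes, and TMM scaling. Log2 CPM used a prior count of 2. FPKM served to compare genes with one another and was also tested with limma 3.58.1. Ratios within a mouse were compared with exact two-sided permutation tests. As alternatives, the data were fitted with DESeq2 1.42.0, the likelihood ratio test of edgeR, DESeq2 size factors, no filter or at least 10 counts in every mouse, log2 FPKM with a pseudocount of 1 or 0.1, a replicate block, a covariate (sex, or the level of choroid plexus genes), males only, other fold thresholds and each mouse left out in turn. Leaving out the choroid-rich control mice 1 and 2 was chosen after seeing the data.

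The genes described and the lists of related genes and markers were chosen with earlier results of these data known. Named besides the 10 genes are their family paralogues, list genes that were called or had the largest mean CPM over the 6 mice, genes just under the fold threshold, overlapping genes and the 5 nearest patterns for 3 genes. *Gfap*, *Aqp4*, *Slc1a3*, *Gdf10*, *Itpkb*, *Stim1* and *Orai2* were named after their values were seen. *Arln* and *Erln* were matched by identifier, and *Mrvi1*, an older name of *Irag1*, was not counted apart. Positions and overlaps of genes were read from Gencode M39 on GRCm39, and promoters from RefSeq on GRCm38.p6, with no conversion between builds. The scripts were tested on simulated counts. Protein sequences were not used here. Some single genes are not reported here.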

Additional observations from a re-analysis of the deposited data

How the results depend on the processing

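The 5 genes called lower were called in all 18 other fits (5 to 5 with a mouse left out), *Atp2b2* joined them in FPKM and in males only, and 2 of them passed a log2 fold change of 1. The count called higher, *Ryr3* alone, was 0 with DESeq2, DESeq2 size factors, no filter, FPKM with either pseudocount, males only or a log2 fold change of 1, and 0 to 1 with a mouse left out. *Ryr3* was lost without control mouse 1 (0.46) or 3 (0.49) and without Pcp2-cre mouse 2 (0.49) or 3 (0.45), through its position at the threshold, while its adjusted p exceeded 0.05 in FPKM (0.0643 and 0.0709). Pathway genes called lower numbered 16 with no fold threshold and 0 at a log2 fold change of 1, and those called higher 2 with no fold threshold, 1 in males only (*Plcb2*) and 0 to 1 with a mouse left out, the 1 being *Plcb2* without control mouse 3. *Ryr1* relative to the Purkinje cell markers reversed to 0.0397 in FPKM. Uncalled log2 fold changes also crossed 0. That of *Itpr2* was -0.00279 with no filter, -0.125 in males only and -0.0797 to 0.115 with a mouse left out, and that of *Ryr2* 0.0505 with the choroid plexus score, 0.0773 without control mice 1 and 2 and -0.0742 to 0.0553 with a mouse left out. The cause was not tested.

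With the replicate block 5 genes were lower and 1 higher, and over all genes 319 and 229 in place of 304 and 233. Deviations of same-numbered mice correlated at 0.0408, 0.0565 and 0.166, and Pcp2-cre mouse 1 correlated best with control mouse 2, so the numbers were not taken to pair the mice, although the mice numbered 3, with the highest of these values, also share their sex. Over all genes other fits called 155 lower and 126 higher (FPKM with a pseudocount of 1), 167 and 144 (0.1), 231 and 150 (DESeq2) or 285 and 160 (at least 10 counts in every mouse). At 3 mice per genotype no exact test can fall under p = 0.10, and *Casq1* and *Atp2a1*, at a few CPM, have wide intervals.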
